A study of Mus musculus with 32 samples.

Results

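Genes of glycolysis and gluconeogenesis were followed through the resident cells of the mouse liver and the tumors that meet them there. The genes were taken from a list of 39 symbols covering glucose and lactate transport, each step between glucose and lactate, the enzymes that run the pathway in reverse, and the kinases that hold back pyruvate oxidation. By gene name, 38 of the 39 were found on the array, with 57 of its 55681 probes. The remaining symbol, *Pkm2*, is an older name of the muscle pyruvate kinase gene. Its current symbol, *Pkm*, is on the array and is given apart from the counts. There were 4 biological replicates in each of 8 groups, all from Balb/c mice 6 to 8 weeks old: sinusoidal endothelial cells (EC), Ito cells (IC) and Kupffer cells (KC) of control mice, the same cells of mice that carried a tumor in the liver, called tumor microenvironment (TME) cells (ET, IT and KT), primary colorectal tumors (TP) and tumor liver metastases (TM). The TME mice had received C26 cells, a colon carcinoma line of the same strain, through the spleen 14 days before isolation, and the control mice buffer alone. Endothelial cells line the sinusoids, Kupffer cells are the macrophages that reside in them, and Ito cells, also called stellate cells, store vitamin A beside them. The cells were separated on density gradients, the Kupffer cells by adherence, and were kept in culture for up to 24 hours before use. The levels of all liver cell groups hold whatever that culture changed. Whether it changed the groups alike was not tested. How the tumor samples were collected is not given in the sources used here.

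Glycolysis splits glucose into pyruvate, and under low oxygen or in fast-growing cells much of that pyruvate leaves the cell as lactate. Glucose enters through facilitative transporters, is trapped by hexokinases and is committed by phosphofructokinase, whose activator fructose 2,6-bisphosphate is made by the bifunctional enzymes of the *Pfkfb* family. Gluconeogenesis, best known from the hepatocyte, bypasses the irreversible steps with pyruvate carboxylase, phosphoenolpyruvate carboxykinase, fructose 1,6-bisphosphatase and glucose 6-phosphatase. Pyruvate dehydrogenase kinases switch off the entry of pyruvate into the citric acid cycle.

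All levels are log2 values of the processed array signal, which is already corrected for background and scaled between dyes, after quantile normalization over the 32 samples. A level of 1 gene cannot be set against that of another, because probes differ in brightness. A gene was called when the adjusted p of limma was under 0.05 over all 55681 probes. A probe is termed well above background when the scanner program marked it so. This held for 38.4 to 57.1% of the spots of a sample, for 22 of the 38 genes in all 32 samples, and for 36 in all samples of at least 1 group. The exceptions were *Pklr*, the pyruvate kinase of liver and red cells, and *Fbp2*, the muscle fructose bisphosphatase. *Fbp2* was well above background in no sample.

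The order of the samples on the arrays limits what can be compared. Each of the 16 arrays carried 2 samples, and EC, IC, KC and TM samples were labelled with Cy3 on all of them and ET, IT, KT and TP samples with Cy5. Dye and TME, or dye and tumor site, therefore cannot be told apart. Endothelial and Ito samples lay on one slide and Kupffer and tumor samples on the other. Differences within a dye and a slide are endothelial against Ito cells and tumor against Kupffer cells. Some arrays went against the rest. On array 4 of the Ito cells the TME minus control differences correlated at -0.66 with the mean of the other 3 arrays over 17050 probes, and on array 4 of the Kupffer cells at -0.60. Neutrophil markers, read as their mean log2 level, were 8.99 in IC replicate 4 against 5.30 to 6.13 in the other IC samples, and 6.01 in IT replicate 4 against 8.25 to 10.67. In KC replicate 4 they were 8.93 against 6.58 to 6.92, and in KT replicate 4 6.83 against 8.68 to 8.73. These samples thus went against their labels, and the labels were kept. Values without replicate 4 are therefore given beside the results for these cells. On the remaining Ito and Kupffer arrays the correlation was 0.19 to 0.46, and on the endothelial arrays 0.51 to 0.78.

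The labelled cell types were checked with marker lists, each read as the mean log2 level of its genes. Endothelial markers lay at 12.62 to 12.88 in EC and 12.08 to 12.64 in ET samples, against 10.23 to 12.10 in the other liver cell samples. Kupffer cell markers reached 13.11 to 15.21 in KC and 14.31 to 15.01 in KT samples, but also 13.18 to 14.89 in IC and 11.18 to 14.73 in IT samples. Markers of Ito cells, such as *Lrat* and *Des*, were lower in IC samples (6.81 to 7.34) than in EC samples (8.06 to 8.71). The samples labelled as Ito cells were thus not set apart by Ito cell markers, and they carried the highest hepatocyte markers, 10.84 to 11.67 in IC and 10.38 to 11.61 in IT against 8.86 to 9.12 in EC. In the tumors hepatocyte markers lay between 3.71 and 4.05. In bulk samples such as these, fewer cells of a type and less RNA per cell cannot be told apart.

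**Figure D1:**
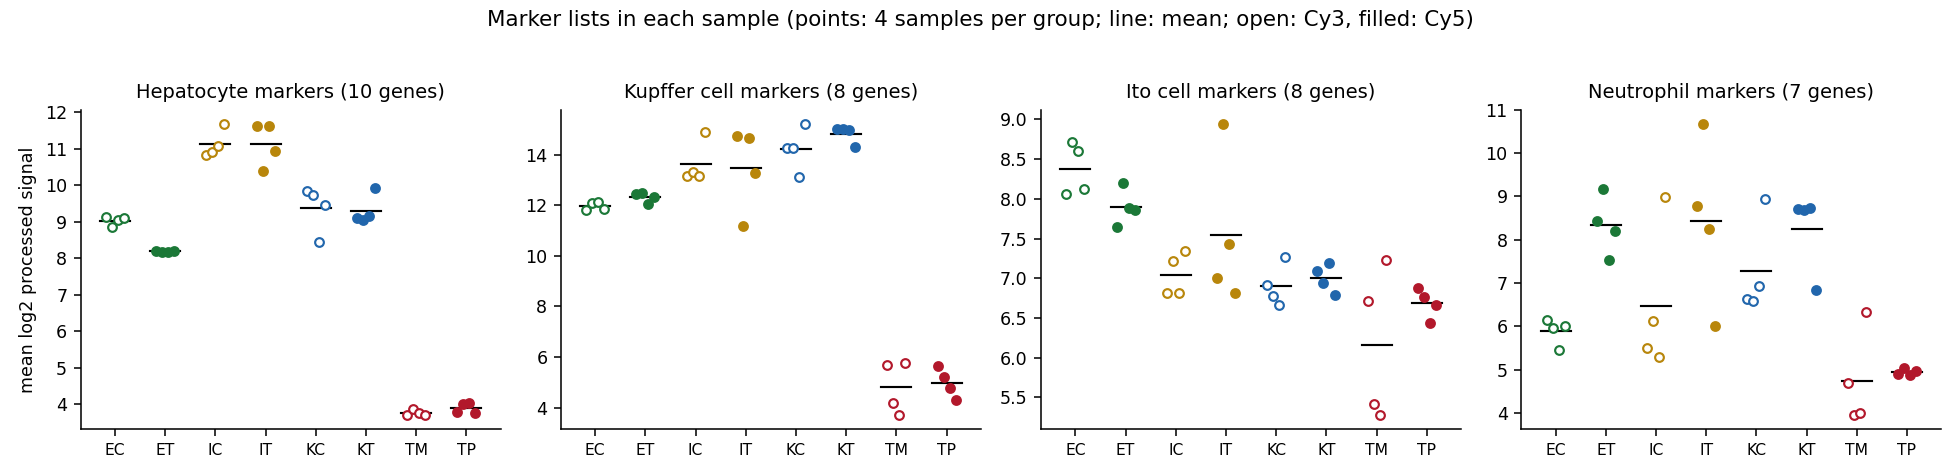
Mean log2 processed signal (vertical axis) of 4 marker lists in each of the 32 samples, by group (horizontal axis); points are samples, lines are group means, open points are Cy3 and filled points Cy5. Hepatocyte markers were highest in IC and IT samples, and neutrophil markers lay at 7.54 to 9.18 in ET against 5.46 to 6.14 in EC samples.

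The first comparison was TME against control endothelial cells. In TME endothelial cells the glucose transporter gene *Slc2a1* and 3 genes of lower glycolysis, *Pgam1*, *Eno1* and *Pgk1*, rose, by 0.72 to 1.24 on the log2 scale or 1.65- to 2.36-fold. The gluconeogenic gene *Fbp1* and the pyruvate dehydrogenase kinase gene *Pdk4* fell, to 0.29 and 0.354 of the control level. These were 4 higher and 2 lower of 38 genes, where 1.17% of all probes were called (0.576% higher and 0.591% lower). At an adjusted p under 0.001 and at least 4-fold, 0 genes passed by limma, beside 0.171% of all probes. Among the 22 genes well above background in all samples 4 were called, all of them higher, beside 0.985% of the 17050 probes of that kind. The median difference of the 38 genes was 0.29, and that of all probes 0.009.

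*Slc2a1* encodes GLUT1, the basal glucose transporter of most cells. It measured 12.61, 12.78, 12.76 and 12.62 in the 4 EC samples and 14.14, 13.46, 14.04 and 14.10 in the 4 ET samples. Every TME sample lay above every control sample, ET replicate 2 the least so, and the difference was 1.24 ± 0.30 (SE, n = 4; limma, adjusted p = 0.0335). *Pgam1*, the phosphoglycerate mutase of most tissues, measured 14.10, 14.70, 14.56 and 14.20 in EC and 15.50, 15.29, 15.41 and 15.52 in ET samples. All ET samples lay above all EC samples, and the difference was 1.04 ± 0.14 (SE, n = 4; limma, adjusted p = 7.91e-05). *Pgk1*, which makes the first ATP of the pathway, went from 15.65 ± 0.16 to 16.37 ± 0.11 (SD, n = 4; limma, adjusted p = 0.0164). *Eno1*, the enolase of most tissues, went from 14.97 ± 0.21 to 15.80 ± 0.18 (SD, n = 4; limma, adjusted p = 0.0282). The only *Eno1* probe is placed by the array files on chromosome 2, where the gene is on chromosome 4, and the *Pgk1* probe used is placed on chromosome 3, where the gene is on X. A *Pgk1* probe on X gave 0.80 (limma, adjusted p = 0.00402). For *Eno1* there is no second probe, and its value is uncertain for that reason.

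The neighbouring steps did not pass the test. *Ldha*, which turns pyruvate into lactate, differed by 0.94 ± 0.25 (SE, n = 4; limma, adjusted p = 0.07) and *Tpi1*, the triose phosphate isomerase, by 0.78 ± 0.25 (SE, n = 4; limma, adjusted p = 0.178). In both genes all 4 ET samples lay above all 4 EC samples. *Gapdh* differed by 0.33, *Aldoa* by 0.32, *Gpi1* by 0.35 and the lactate exporter gene *Slc16a3* by 0.64, each again with groups that did not overlap. In all 14 of the 38 genes lay higher and 2 lower with no overlap, beside 7.06 and 6.12% of all probes, called or not. None of the hexokinases was called, with 0.25 for *Hk2* and 0.39 for *Hk3*. *Hk1* read -0.11 on the probe used, which the files place off the chromosome of the gene. Both *Hk1* probes on that chromosome read 0.59 and 0.62, also not called, and no direction is read for it. *Pkm* differed by 0.42 (limma, adjusted p = 0.816).

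*Fbp1* encodes the fructose 1,6-bisphosphatase of liver. It measured 8.68, 8.24, 8.21 and 8.71 in EC samples and 6.71, 6.71, 6.58 and 6.71 in ET samples. It fell by 1.78 (SE 0.35, n = 4; limma, adjusted p = 0.00616) with no overlap. *Pdk4*, the kinase induced by fasting in many tissues, measured 12.03, 11.66, 11.66 and 12.10 in EC and 10.41, 9.94, 10.53 and 10.57 in ET samples. It fell by 1.5 (SE 0.26, n = 4; limma, adjusted p = 0.00145), on all 4 arrays. The other gluconeogenic genes were not called: *Pck1* differed by -0.60 ± 0.79 and *G6pc* by -0.46 ± 0.54 (SE, n = 4), and neither was well above background in all samples of either group.

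Other cells' markers moved with the same comparison. The mean of 10 hepatocyte markers was 8.17 to 8.21 in ET and 8.86 to 9.12 in EC samples, and 3 of the 10 were called lower, *Cyp2e1* at -2.72, *Ttr* at -1.88 and *Apoa2* at -1.27 on the log2 scale. Of the 9 regulators of hepatic glucose output, *Gckr*, the glucokinase regulator of hepatocytes, fell by 1.88 (limma, adjusted p = 0.000854) and the other 8 were not called. The liver glycogen synthase gene *Gys2* was the only 1 of 11 glycogen genes called and fell by 1.55. The median difference of the 11 was in the other direction, at 0.39, and 6 of them had an unadjusted p under 0.05. Neutrophil markers lay at 7.54 to 9.18 in ET against 5.46 to 6.14 in EC samples, with 0 of 7 called by limma and 4 at an unadjusted p under 0.05, and of 6 cycling cell markers 1, *Mki67*, rose, by 2.02. The part of these cells in the changes of the glucose genes was not tested. Of 14 hypoxia response genes outside glycolysis 0 were called by limma and 2 had an unadjusted p under 0.05, with a median difference of 0.41. The calls depended on single samples. Without replicate 1 only *Pgam1* was called, without replicate 3 or without replicate 4 *Pgam1* and *Pdk4* (for the latter beside 0.785% of all probes), and without replicate 2 all but *Slc2a1* and *Eno1*. EC and ET samples of one number share an array. With the replicate as a block *Slc2a1*, *Eno1* and *Pgk1* were not called (limma, adjusted p = 0.172, 0.0555 and 0.054), beside 0.722% of all probes, and with the array as a random block all 6 genes were. Scaled to the 75th percentile, 2 genes were higher and 2 lower, without *Eno1* and *Pgk1*, beside 1.23% of all probes.

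The bases before the start sites of these 6 genes are shown because the genes were called in the same comparison, in either direction. The core of the hypoxia response element, ACGTG or GCGTG, is a known feature of glycolytic promoters. Each line gives 250 bases upstream of the RefSeq start farthest upstream, in the build GRCm38.p6, from 5′ to 3′ on the strand of the gene, with ACGTG and GCGTG on either strand (CACGT and CACGC) in capitals. The 4 genes that rose come first and the pair that fell come last.
Slc2a1, chr4:119108495-119108744, + strand: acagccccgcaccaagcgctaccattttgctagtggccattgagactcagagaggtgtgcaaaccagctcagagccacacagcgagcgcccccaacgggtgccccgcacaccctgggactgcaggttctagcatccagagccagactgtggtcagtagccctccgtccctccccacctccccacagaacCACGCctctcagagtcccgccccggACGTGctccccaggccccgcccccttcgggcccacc
Pgam1, chr19:41911621-41911870, + strand: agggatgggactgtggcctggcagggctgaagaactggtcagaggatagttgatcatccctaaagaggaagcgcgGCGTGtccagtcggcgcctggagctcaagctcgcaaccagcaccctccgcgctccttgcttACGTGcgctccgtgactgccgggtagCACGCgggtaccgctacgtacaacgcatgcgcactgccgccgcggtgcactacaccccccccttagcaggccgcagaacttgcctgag
Eno1, chr4:150236458-150236707, + strand: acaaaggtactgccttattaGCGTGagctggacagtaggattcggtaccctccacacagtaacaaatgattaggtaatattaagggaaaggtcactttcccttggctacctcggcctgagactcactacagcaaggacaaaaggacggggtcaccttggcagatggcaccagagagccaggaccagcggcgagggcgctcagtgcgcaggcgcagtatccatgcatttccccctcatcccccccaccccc
Pgk1, chrX:106186850-106187099, + strand: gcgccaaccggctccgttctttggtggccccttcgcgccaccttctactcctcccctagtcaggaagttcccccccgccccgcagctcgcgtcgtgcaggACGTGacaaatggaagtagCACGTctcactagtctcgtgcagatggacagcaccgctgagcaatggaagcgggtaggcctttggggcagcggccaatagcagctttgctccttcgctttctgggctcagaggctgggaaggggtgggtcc
Pdk4, chr6:5496279-5496528, - strand: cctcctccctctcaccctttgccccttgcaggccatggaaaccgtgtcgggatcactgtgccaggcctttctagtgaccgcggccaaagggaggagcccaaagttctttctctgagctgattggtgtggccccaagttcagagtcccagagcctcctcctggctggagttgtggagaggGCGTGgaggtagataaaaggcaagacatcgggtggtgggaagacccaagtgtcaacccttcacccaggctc
Fbp1, chr13:62888283-62888532, - strand: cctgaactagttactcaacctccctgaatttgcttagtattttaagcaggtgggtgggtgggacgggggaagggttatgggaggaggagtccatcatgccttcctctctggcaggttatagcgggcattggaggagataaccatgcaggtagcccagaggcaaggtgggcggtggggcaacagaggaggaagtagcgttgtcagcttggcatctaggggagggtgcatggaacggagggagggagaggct

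*Slc2a1* held 1 ACGTG and 1 GCGTG, *Pgam1* 1 and 2, *Eno1* none and 1, *Pgk1* 2 and none, *Pdk4* none and 1, and *Fbp1* neither. The 2 other *Eno1* starts hold 2 GCGTG each. Of 32851 promoter windows of the same length 16.6% held ACGTG, 28.2% GCGTG and 38.6% either. In these windows a gene counts once for each of its starts. Of the 37 members with a RefSeq promoter, 14, 15 and 25 did, or 37.8%, 40.5% and 67.6%. The members were read only at the start farthest upstream, so these shares count windows differently. A CACGTG counts once on each strand. A match is a description of the letters only.

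TME Ito and TME Kupffer cells were compared with their controls in the same way. No gene of the list was called in either cell type by limma, where 0.3% of all probes were called in Ito and 0.435% in Kupffer cells. At an unadjusted p under 0.05 there were 3 genes in Ito and 2 in Kupffer cells, with 0 in both by the methods' t-test after adjustment, and the median difference was 0.18 and 0. In Ito cells *Slc2a3*, the high-affinity transporter of neurons and leukocytes, differed by 0.96 ± 0.44, *Pcx*, the pyruvate carboxylase, by 0.89 ± 0.38 and *Hk1* by -0.44 ± 0.14 (SE, n = 4). In Kupffer cells *Aldoa*, the aldolase of most tissues, differed by -0.39 ± 0.16 and *Hk1* by -0.31 ± 0.14 (SE, n = 4). *Slc2a1* differed by 0.13 in Ito and -0.10 in Kupffer cells and *Pgam1* by 0.09 in both, with 95% confidence intervals of -0.20 to 0.39 and -0.21 to 0.38 for *Pgam1*.

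Both cell types hold an array 4 that ran against the others, and without it the picture changed in part. Without replicate 4, 4 genes were called in Ito cells beside 8.09% of all probes: *Tpi1* was higher by 0.91 and *Pcx* by 1.51, and *Hk1* was lower, at -0.62, as was *Pfkl*, the liver type phosphofructokinase, at -1.1 on the log2 scale. In Kupffer cells 1 gene, *Hk1*, was called lower, at -0.56, beside 3.48% of all probes. *Hk1* rests on a probe that the files place on chromosome 5, off the chromosome of the gene. With all replicates this probe read -0.44 in Ito cells and both probes on the chromosome of the gene read 0.73 and 0.66, so no direction is read for *Hk1*. The share of 4 in 38 is near the background share. IT replicate 2 also stood apart, with Ito markers at 8.94 and neutrophil markers at 10.67 against 6.81 to 7.43 and 6.01 to 8.79 in the other IT samples, and without replicate 2 no gene was called.

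Whether the TME differences differed between cell types was tested as a contrast of the same fit. *Pgam1* had the smallest adjusted p, with a difference larger by 0.95 ± 0.20 in endothelial than in Ito cells and by 0.95 ± 0.20 than in Kupffer cells (SE; limma, adjusted p = 0.0584 and 0.0658). The contrast of *Fbp1* was farther from 0 but less precise, at -2.0 ± 0.50 and -1.42 ± 0.50 (SE; limma, adjusted p = 0.145 and 0.831). No gene passed by limma, and 6 and 9 genes of the 38 had an unadjusted p under 0.05. The endothelial rise is therefore not shown to differ from the values in Ito or Kupffer cells. Between Ito and Kupffer cells the smallest adjusted p was 0.984, with 0 genes at an unadjusted p under 0.05.

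**Figure D2:**
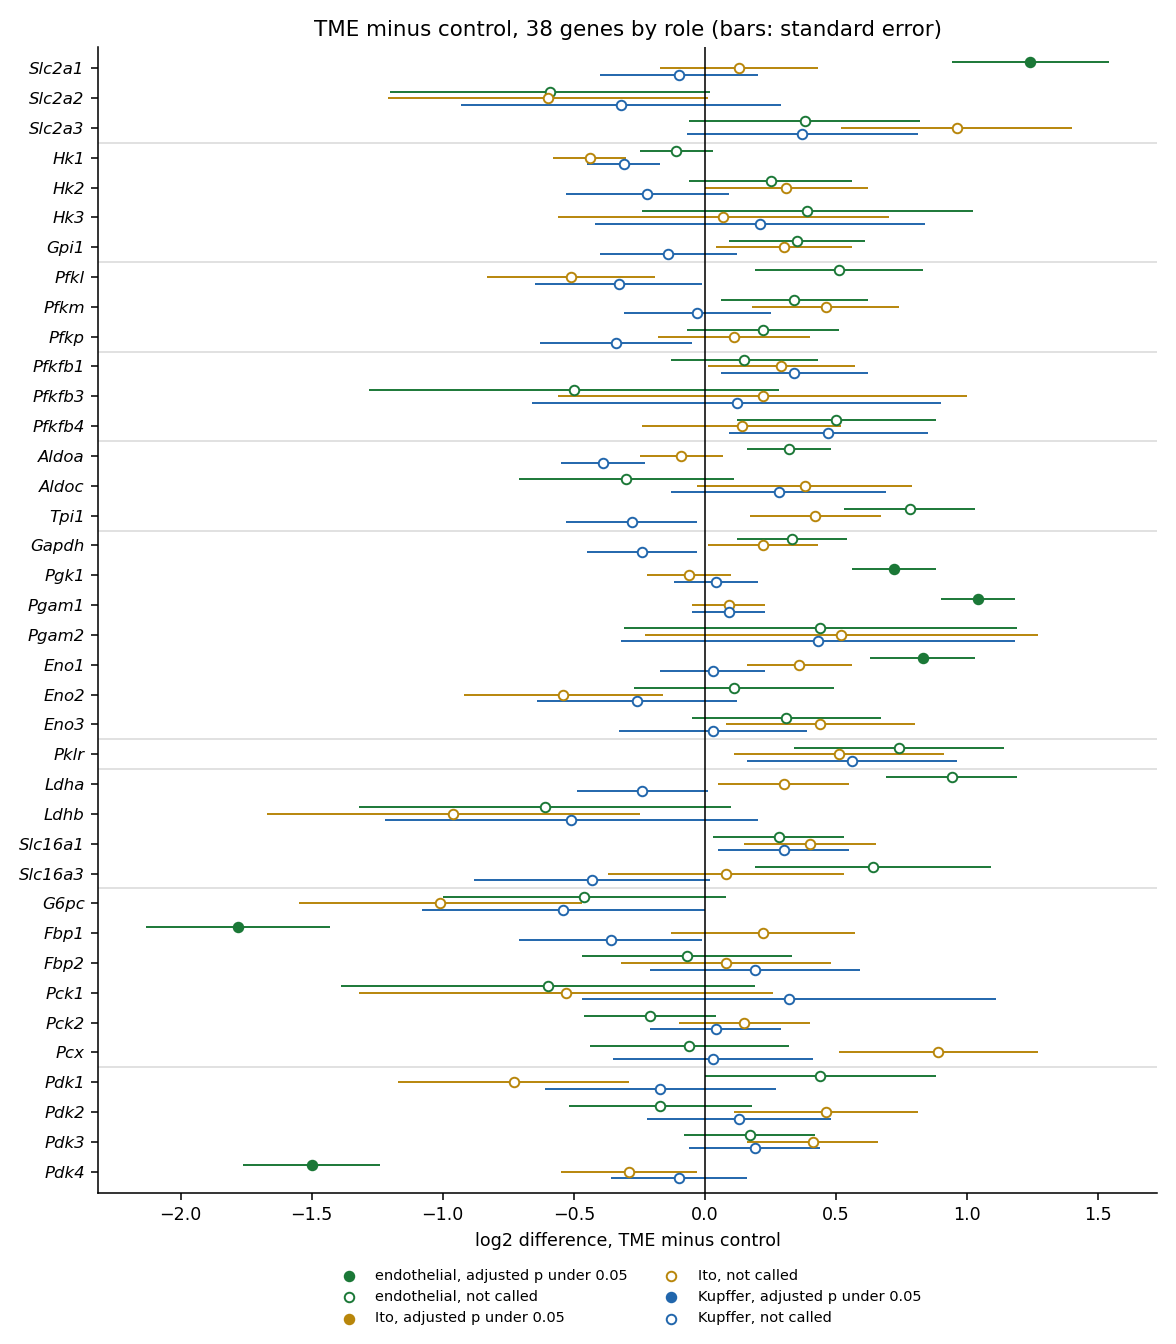
Log2 difference, TME minus control (horizontal axis), of 38 genes ordered by role (vertical axis) in endothelial, Ito and Kupffer cells; points are fitted differences, bars standard errors, and filled points are called at an adjusted p under 0.05. The 6 filled points are all endothelial: *Slc2a1*, *Pgam1*, *Eno1* and *Pgk1* lie right of 0, and *Fbp1* and *Pdk4* left of it.

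The tumors were set against Kupffer cells of the same dye and slide, TM against KC and TP against KT. Of the 38 genes 12 were higher and 14 lower in TM, where 39.1% of all probes were called (22.6% higher and 16.6% lower), and 13 were higher and 14 lower in TP, where 43.3% were called (25.1% and 18.2%). For the 22 genes well above background in all samples the counts were 14 and 15, beside 65 and 68.4% of all such probes, so the number of calls is near the background for bright probes. Called in both comparisons were 11 higher and 14 lower genes, beside 18.8 and 14.3% of all probes, with 0 in opposite directions. At an adjusted p under 0.001 and at least 4-fold, 15 and 14 genes were called, beside 14.2 and 15.9% of all probes. TM and TP share no sample with each other and neither do KC and KT, but the TM and TP samples of one number share an array, as do KC and KT samples. Scaled to the 75th percentile, 18 genes were higher and 13 lower in each tumor group (beside 48.3 and 57.1% of all probes), with the median of all probes at 0.503 in TM and 0.608 in TP.

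Among the *Pfkfb*, *Pck* and *Pdk* genes, members of a family differed in opposite directions. The tumors held more of *Pfkm*, *Aldoc*, *Eno3*, *Eno2* and *Pdk1*, and less of *Hk3*, *Pfkfb3*, *Ldhb* and *Pdk4*. Kupffer cells held the glucose transporters and *Fbp1* at the higher level. These cells differ in identity throughout: all 8 Kupffer cell markers were lower in the tumors, and all 6 cycling cell markers were higher, by a median of 6.36 in TM and 7.28 in TP on the log2 scale.

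Of the 3 glucose transporter genes all 3 were lower in both tumor groups. *Slc2a1* measured 13.81, 13.91, 14.50 and 13.15 in KC and 11.83, 11.49, 11.41 and 12.33 in TM, and 13.62, 13.54, 13.61 and 14.19 in KT and 12.45, 12.61, 12.44 and 12.31 in TP samples. No tumor sample reached a Kupffer sample, and the differences were -2.08 ± 0.30 and -1.29 ± 0.30 (SE, n = 4; limma, adjusted p = 1.69e-06 and 0.000776). *Slc2a3* was not well above background in any tumor sample, and was at least 1.63-fold higher in KC than in TM and at least 1.61-fold higher in KT than in TP (limma, adjusted p = 5.62e-07 and 1.41e-07). For such a bound the group at background was set, array by array, to the dimmest signal that still counted as well above background, or to its own signal where that was higher. *Slc2a2*, the transporter of hepatocytes and beta cells, was also below that limit in the tumors and in 1 of 4 KC and 2 of 4 KT samples, with bounds of 1.36- and 1.07-fold. In TP it was not called after normexp, another background correction made from the raw signals, with or without loess (-0.46 in both, limma, adjusted p = 0.17 and 0.185).

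Among the hexokinases, *Hk3* is known from blood cells and macrophages. It measured 14.68, 14.37, 13.59 and 14.79 in KC and 7.42, 5.21, 4.48 and 9.11 in TM samples. In KT it measured 14.61, 14.52, 14.45 and 14.69, and in TP 8.82, 7.62, 6.41 and 6.27. The TM samples were widely spread, and all tumor samples lay below all Kupffer samples, with differences of -7.80 and -7.29 (SE 0.63, n = 4; limma, adjusted p = 4.78e-11 and 1.57e-10). *Hk3* was well above background in 3 of 4 TM and all TP samples. *Hk2*, the isoform often raised in tumors, was lower in both, at -1.84 and -1.95 on the log2 scale (limma, adjusted p = 1.96e-05 and 7.86e-06). *Hk1* was higher by 0.44 and 0.82 on the brightest of its probes, but lower on both others, at -1.13 and -0.83 in TM and at -0.89 and -1.11 in TP, and no direction is read for it. *Gpi1*, the glucose phosphate isomerase, was higher by 0.84 and 0.76. In TM it was not called without replicate 1 or without replicate 4. In TP it was not called without replicate 4, nor after normexp unless loess followed.

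The first 30 bases of the 3 *Hk1* probes and of the 2 *Pfkp* probes are printed because their readings disagree. Positions are those of mm9 in the array files, and the bases run 5′ to 3′ as deposited, the probe used for each gene first.
Hk1, chr5:22118404-22118463, - strand: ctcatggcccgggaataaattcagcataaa
Hk1, chr10:61731856-61731915, - strand: ggaatctcccatcgctttagtgagccattg
Hk1, chr10:61732717-61732776, - strand: aaggaactgtcaccaaagtgtaccgtgtcc
Pfkp, chr13:6581718-6583872, - strand: caaactgaaggggtcccagggcacagggaa
Pfkp, chr13:6579124-6579183, - strand: cttcatggtctcagaatttccttcagagtt

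The probe of *Hk1* used in the counts is the one on chromosome 5, and the other pair lie on chromosome 10 with the gene. The *Pfkp* probe used spans 2155 bases of the genome. It read -1.33 in TM and -0.80 in TP (limma, adjusted p = 0.000412 and 0.025), whereas the second *Pfkp* probe, dim at a mean level of 4.73, read 0.97 and 1.51 (limma, adjusted p = 0.0899 and 0.00663). *Pfkp* is the platelet type of phosphofructokinase.

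No direction is read for it. The muscle type, *Pfkm*, was higher in the tumors. It measured 5.83, 5.78, 6.11 and 6.37 in KC against 10.26, 10.24, 10.27 and 10.47 in TM samples, and 6.22, 6.04, 6.01 and 5.71 in KT against 10.13, 10.32, 10.17 and 9.90 in TP samples. The 8 tumor samples lay between 9.90 and 10.47, above all Kupffer samples, and the differences were 4.29 and 4.14, or 19.6- and 17.6-fold (SE 0.28, n = 4; limma, adjusted p = 6.16e-13 and 1.07e-12). *Pfkl* did not pass, at -0.37 in TM and 0 in TP. Of the bifunctional enzymes, *Pfkfb3* is the isoform with the strongest kinase activity. It measured 14.70, 14.84, 14.40 and 14.86 in KC and 5.78, 1.99, 1.91 and 7.52 in TM samples. In KT it measured 14.75, 14.91, 14.80 and 14.82, and in TP 7.19, 5.80, 5.20 and 3.71. Kupffer samples were tightly grouped and tumor samples were not, with 2 of 4 TM and 3 of 4 TP samples well above background, and the differences were -10.40 and -9.35 (SE 0.78, n = 4; limma, adjusted p = 1.18e-11 and 8.3e-11). Their size rests in part on signals at background, and with the normexp correction they were -8.08 and -7.94. *Pfkfb4* was lower too, at -1.88 and -3.45 on the log2 scale, and *Pfkfb1* higher by 0.79 and 0.76. *Pfkfb1* was not called in TM without replicate 1, 2 or 3, nor in TP without replicate 2, 3 or 4.

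The aldolase and enolase genes follow in the pathway. *Aldoc*, the brain type aldolase, measured 6.12, 5.55, 5.36 and 6.13 in KC and 9.54, 8.31, 8.70 and 10.89 in TM samples. In KT it measured 6.09, 6.28, 6.20 and 5.69, and in TP 10.32, 10.60, 10.37 and 9.68. It was higher by 3.57 and 4.18 with no overlap (SE 0.41, n = 4; limma, adjusted p = 4.12e-08 and 2.13e-09). *Aldoa* was lower, at -1.07 and -0.74, but at -0.04 and 0.07 when scaled to the 75th percentile, so its direction depends on the scaling. *Eno3*, the muscle enolase, measured 8.12, 8.08, 8.77 and 8.75 in KC and 13.08, 13.83, 13.68 and 12.45 in TM samples. In KT it measured 8.60, 8.52, 8.76 and 7.95, and in TP 12.72, 12.54, 12.53 and 12.56. That is 28.4- and 17.5-fold higher in the tumors (log2 4.83 and 4.13, SE 0.36, n = 4; limma, adjusted p = 1.26e-11 and 2.32e-10). *Eno2*, the neuronal enolase, was higher by 2.09 and 1.68. *Eno1* differed by 0.35 and 0.47 and was not called.

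The next genes lie between triose phosphate and lactate. *Pgam1* was called in TM, at 0.50, with 0.31 in TP, and *Tpi1* in TP, at 0.69, with 0.47 in TM. A second *Tpi1* probe was called higher in both, at 0.89 in TM and 0.91 in TP (limma, adjusted p = 0.00745 and 0.00567). The difference between the 2 tumor comparisons was not tested. *Gapdh* read 0.68 in TP and -0.01 in TM on the brightest of its 7 probes, which the files place on X, off chromosome 6 where the gene lies. All 7 probes were called higher in TP, and 4 of the 7 in TM, at 0.52 to 1.41, so its reading in TM differs between probes. *Pgk1* differed by -0.20 and 0.11 and *Pkm* by -0.25 and -0.33, neither of them called. Scaled to the 75th percentile *Pgk1* read 0.76 and 1.16 and *Pkm* 0.52 and 0.57. The medians of all probes were then 0.503 and 0.608. Under the same scaling the *Gapdh* probe used read 0.96 in TM. The readings of these genes thus depend on the scaling. *Ldha* differed by -0.15 and 0.46 on the brightest of its probes and was not called. Both other *Ldha* probes were called higher, at 1.24 and 0.94 in TM and at 1.12 and 0.89 in TP. The reading of *Ldha* thus differs between probes. *Ldhb*, the lactate dehydrogenase subunit of heart, was lower, at -3.60 and -3.01 on the log2 scale (limma, adjusted p = 0.000141 and 0.000956). Only 1 of 4 samples was well above background in each tumor group, and with the normexp correction the differences were -1.48 and -1.13. The lactate transporters *Slc16a1* and *Slc16a3* were not called.

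Gluconeogenic genes split into 2 sets. *Fbp1* and *Pck1*, the cytosolic phosphoenolpyruvate carboxykinase, were not well above background in any tumor sample. *Fbp1* measured 7.98, 8.0, 6.59 and 6.82 in KC and 6.53, 6.66, 6.83 and 7.91 in KT, and 3.02, 2.78, 2.60 and 2.33 in TM and 2.92, 2.74, 2.71 and 2.56 in TP samples. It was at least 2.73-fold and at least 1.99-fold higher in the Kupffer cells (limma, adjusted p = 1.45e-11 and 7.73e-11). *Pck1* measured 6.40, 6.31, 4.48 and 6.39 in KC and 6.42, 5.98, 6.29 and 6.16 in KT, and between 1.86 and 2.25 in all tumor samples, with bounds of 1.90- and 1.76-fold (limma, adjusted p = 0.000174 and 4.99e-05). *G6pc*, the glucose 6-phosphatase of liver, was lower in TM, at -1.85 on the log2 scale with 1 of 4 TM samples well above background (-0.72 with the normexp correction), and at least 1.36-fold higher in KT than in TP, where no sample was well above background (limma, adjusted p = 0.00647 and 0.00976). In the other direction, *Pcx* was higher in the tumors by 3.4 and 3.80 and *Pck2*, the mitochondrial carboxykinase, by 1.21 and 1.45 (0.59 and 0.75 with the normexp correction). Hepatocyte markers moved with the first set: 8 of 10 were lower in TM and 7 of 10 in TP, and their part in it was not tested.

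Genes of the pyruvate dehydrogenase kinases were divided too. *Pdk4* measured 10.21, 10.31, 9.94 and 9.82 in KC and 1.89, 1.88, 3.41 and 1.88 in TM samples. In KT it measured 9.92, 9.75, 9.97 and 10.24, and in TP 1.93, 1.92, 1.96 and 1.96. No tumor sample was well above background, and the gene was at least 16.9-fold higher in KC than in TM and at least 14.2-fold higher in KT than in TP (limma, adjusted p = 8.17e-19 and 4.57e-19). *Pdk1*, a target of hypoxia signalling, was higher in the tumors by 2.52 and 3.44, and *Pdk3* by 1.76 and 2.06. *Pdk2* differed by 0.76 and 0.85 on the probe used and was not called. Its other probe was called in TM, at 0.72, but not in TP, at 0.54 (limma, adjusted p = 0.0179 and 0.0713).

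**Figure D3:**
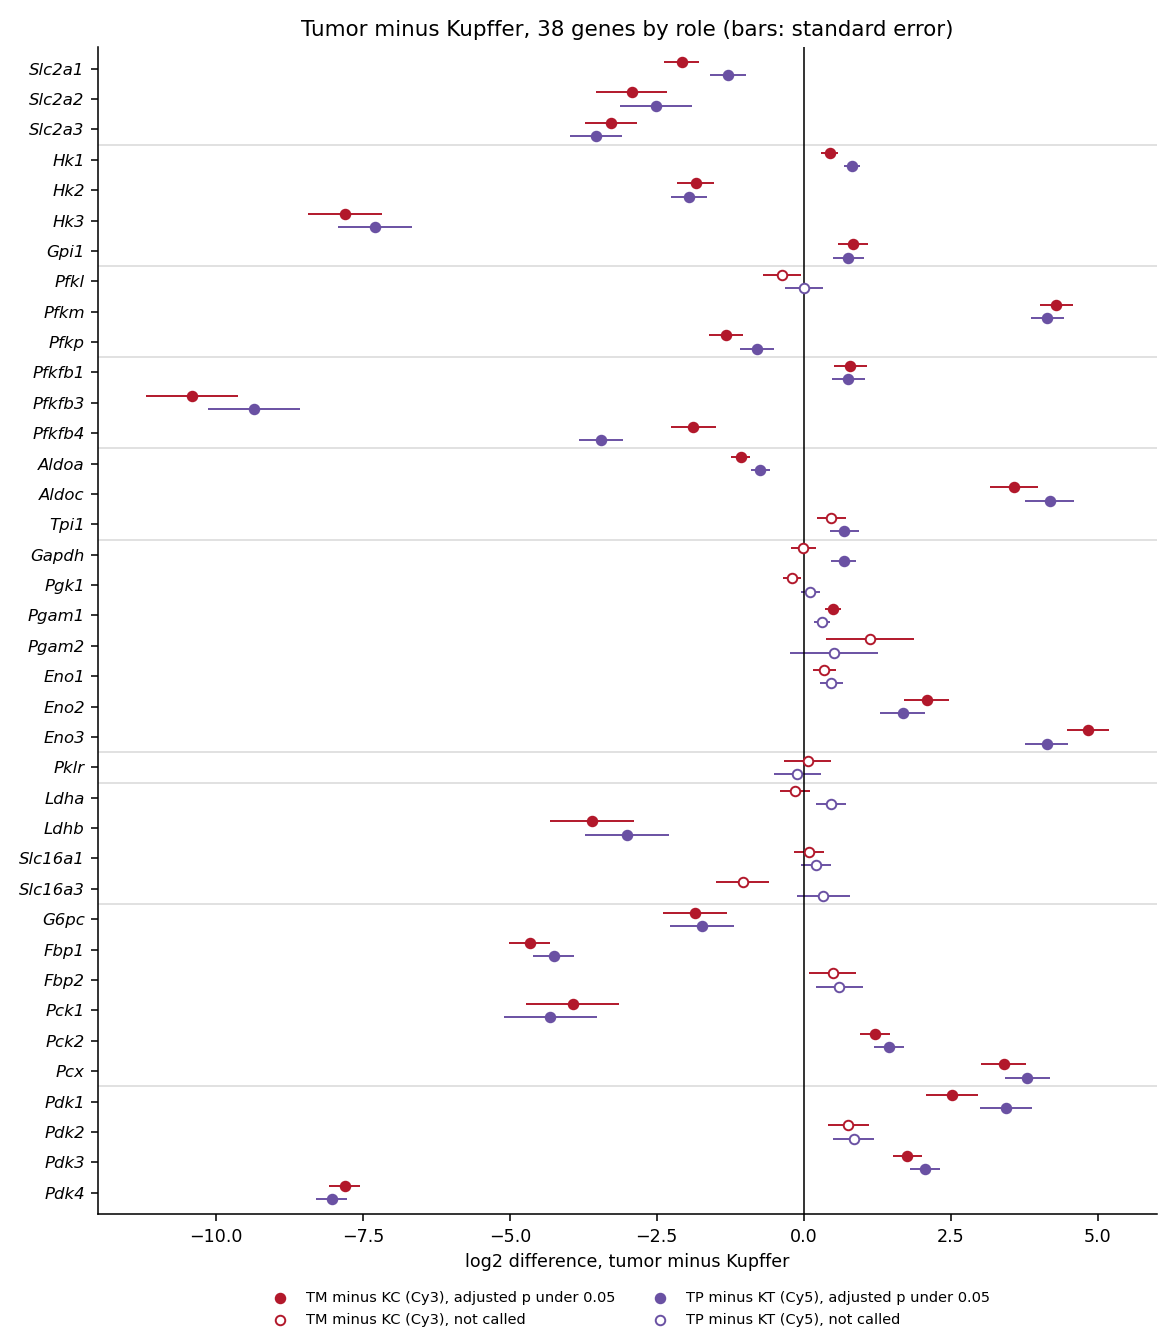
Log2 difference, tumor minus Kupffer (horizontal axis), of 38 genes ordered by role (vertical axis), for TM minus KC and TP minus KT; points are fitted differences, bars standard errors, and filled points are called at an adjusted p under 0.05. *Pfkfb3*, *Hk3* and *Pdk4* lie left of -7 and *Pfkm*, *Eno3* and *Aldoc* right of 3 in both comparisons.

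The pathways that receive or divert these intermediates were read from lists with no gene of the 38. Of 10 measured genes of the pyruvate dehydrogenase complex, its phosphatases and the pyruvate carrier, 9 were higher in both tumor groups and none lower, with medians of 1.07 and 1.05, where 22.6 and 25.1% of all probes were higher and 42 and 43.4% of those well above background in all samples. The catalytic subunit gene *Pdha1* was higher by 2.16 and 1.96 and the phosphatase gene *Pdp2* by 1.41 and 1.68. In the citric acid cycle 11 of 13 genes were higher and 1, *Ogdh*, lower, at -3.01 and -4.14 on the log2 scale. *Fh1*, the fumarase, was higher by 2.03 and 2.69 and *Idh3a*, of the NAD-dependent isocitrate dehydrogenase, by 1.97 and 2.57. The pentose phosphate pathway was mixed, with 3 of 8 genes higher and 3 lower in both. Of 14 hypoxia response genes 2 were higher, *Ankrd37* and *Car9*, by 4.13 and 3.26 in TM and by 3.89 and 3.33 in TP, and 5 were lower in each. *Egln3* was lower, at -6.25 and -6.39, as was *Hif1a*, at -2.62 and -1.75. Of 11 glycogen genes 2 were higher and 5 lower in TM and 3 and 3 in TP, with *Pygl*, the liver phosphorylase, at -4.70 and -4.41.

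Leaving out replicate 4 gave 25 called genes in TM, 10 higher and 15 lower, beside 37.4% of all probes, and 24 in TP, 11 higher and 13 lower, beside 39.1%.

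Between TP and TM no gene of the list was called by limma, where 2.91% of all probes were. At an unadjusted p under 0.05 there were 6 genes, and by the methods' t-test 0 after adjustment. The differences on arrays 1 and 4 correlated at -0.20 and -0.06 with the mean of the other arrays. *Pfkfb4* was lower in all 4 TP samples than in any TM sample (8.04 ± 0.09 against 9.14 ± 1.05; SD, n = 4; limma, adjusted p = 0.116). *Slc16a3* differed by 0.94, *Aldoc* by 0.88, *Slc2a1* by 0.68, *Gapdh* by 0.44 and *Pgk1* by 0.35, with overlapping groups. TM samples were spread: *Slc16a3*, which exports lactate, measured 12.92, 10.50, 10.47 and 13.70 in TM and 13.01, 12.95, 12.62 and 12.76 in TP samples. TM replicates 2 and 3 were low in this gene, in *Ldha* (16.45 and 15.89 against 17.57 and 17.33) and in cycling cell markers (9.46 and 10.03 against 12.63 and 12.08). Without replicate 4, *Pfkfb3* and *Aldoc* were called higher in TP, by 2.84 and 1.58 (limma, adjusted p = 0.0352 and 0.0335), beside 2.7% of all probes. Only 2 of 4 TM and 3 of 4 TP samples were well above background for *Pfkfb3*. With all replicates its difference was 1.17, and 0.16 with the normexp correction. Its second probe read -0.86, and none of these 3 values was called, so no direction is read for it.

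Endothelial and Ito cells shared slide and dye and could be compared in control and in TME mice. Ito cell samples held more of the hepatocyte-type glucose genes *Slc2a2*, *G6pc*, *Pck1* and *Fbp1*. Endothelial samples held more *Ldhb*, *Slc16a3*, *Pfkl*, *Tpi1*, *Pdk1* and *Pdk3*. In control mice 8 genes were higher and 4 lower in endothelial cells, where 9.95% of all probes were called (5.79% higher and 4.16% lower), and in TME mice 10 were higher and 7 lower, where 8.4% were (4.83% and 3.58%). At an adjusted p under 0.001 and at least 4-fold, 2 and 4 genes were called, beside 1.27 and 0.884% of all probes. Called in both were 6 higher and 4 lower genes, beside 2.76 and 2.03% of all probes. Among the 22 genes well above background in all samples 4 and 9 were called, beside 17.7 and 14.3% of all such probes. EC and ET samples of one number share an array.

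*Slc2a2* measured 3.29, 2.48, 1.96 and 2.40 in EC and 7.18, 7.17, 7.12 and 7.66 in IC, and 1.99, 1.95, 1.96 and 1.88 in ET and 7.67, 4.47, 7.57 and 7.04 in IT samples. It was not well above background in any endothelial sample, and was at least 3.24-fold higher in IC and at least 3.02-fold higher in IT (limma, adjusted p = 6.78e-06 and 7.06e-06). *G6pc* releases glucose from its phosphate. It measured 3.17, 4.80, 4.74 and 4.04 in EC and 7.30, 7.61, 7.71 and 7.33 in IC, and 3.83, 3.64, 4.21 and 3.22 in ET and 7.0, 4.57, 7.10 and 7.24 in IT samples. The endothelial groups were lower on average, with differences of -3.30 and -2.75 (SE 0.54, n = 4; limma, adjusted p = 0.000137 and 0.00126), with IT replicate 2 close to them. *G6pc* was well above background in 3 of 4 EC and 2 of 4 ET samples, and the differences were -1.62 and -1.19 with the normexp correction. *Pck1* measured 3.24, 3.37, 5.56 and 3.57 in EC and 6.87, 7.08, 6.99 and 8.83 in IC, and 2.52, 3.1, 5.11 and 2.61 in ET and 8.78, 3.41, 8.68 and 6.74 in IT samples. It was lower in endothelial cells, at -3.50 and -3.57 (SE 0.79, n = 4; limma, adjusted p = 0.00399 and 0.00423), and in TME cells the groups overlapped through IT replicate 2. It was well above background in 3 of 4 EC samples and 1 of 4 ET samples, and the normexp correction gave -1.64 and -1.72. *Fbp1* was lower too, at -1.30 and -3.31, and so in TME cells were *Pcx* at -1.79, *Aldoc* at -1.63 and *Pdk4* at -1.02, of which *Aldoc* was not called after the normexp correction (-0.76).

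Hepatocyte markers moved the same way: 8 of 10 were lower in EC than in IC and 9 of 10 in ET than in IT, with medians over all 10 of -1.98 and -3.43 on the log2 scale. Erythrocyte markers were lower too, 3 of 5 in each comparison. IT replicate 2 had the lowest hepatocyte markers of the Ito samples, 10.38 against 10.84 to 11.67, and the lowest *Slc2a2*, *G6pc* and *Pck1*, but the highest *Fbp1*, at 11.38 against 9.34 to 9.93. The part of hepatocyte RNA in these differences was not tested.

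*Ldhb* measured 9.88, 10.44, 10.52 and 9.96 in EC and 8.42, 8.35, 8.23 and 6.65 in IC, and 9.11, 10.44, 9.34 and 9.48 in ET and 6.48, 6.90, 6.30 and 8.14 in IT samples. All endothelial samples lay above all Ito samples, by 2.29 and 2.64 on average (SE 0.71, n = 4; limma, adjusted p = 0.0387 and 0.0192). In control cells *Ldhb* was not called without replicate 1, 2, 3 or 4, nor with the replicate block. In TME cells it was not called without replicate 1, 2 or 3. *Slc16a3* was higher by 1.61 and 2.18, *Pdk1* by 1.80 and 2.98 (1.00 and 1.60 with the normexp correction), *Pfkl* by 1.25 and 2.27, *Tpi1* by 1.00 and 1.37 and *Pdk3* by 1.38 and 1.14. In control cells alone *Pdk2* and *Pck2* were called, at 1.48 and 0.90, but not after the normexp correction (0.47 and 0.31; *Pdk2* was called when loess followed it), and in TME cells alone *Slc2a1*, *Pgam1*, *Eno1* and *Pgk1*, at 1.31, 1.05, 0.82 and 0.66, with 0.19, 0.11, 0.35 and -0.13 in control cells. The difference between these pairs of values is the endothelial minus Ito contrast of TME differences given above, in which none of them passed. *Gapdh* and *Ldha* were not called in TME cells on the probes used, at 0.61 and 0.71. Several other *Gapdh* probes, though not all, were called higher there, at 0.56 to 0.75, and so was an *Ldha* probe, at 0.77. The readings of these genes thus depend on the probe. Of the 14 hypoxia response genes 5 were higher in ET than in IT, among them *Bnip3* by 2.38 and *Egln1* by 1.94, and 1 in EC than in IC. The counts depended on single samples: 5 to 12 genes were called in control cells and 10 to 17 in TME cells with 1 replicate left out, the lowest without replicate 3 and without replicate 1. Without replicate 4 there were 12 and 15, beside 5962 of the 55681 probes in control and 6.81% in TME cells. No such share is given for the other replicates left out. Under the scaling to the 75th percentile the median of all probes was -0.295 and -0.304, and 7 genes were higher and 5 lower in control cells (beside 11.1% of all probes) and 8 and 7 in TME cells (beside 8.23%).

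**Figure D4:**
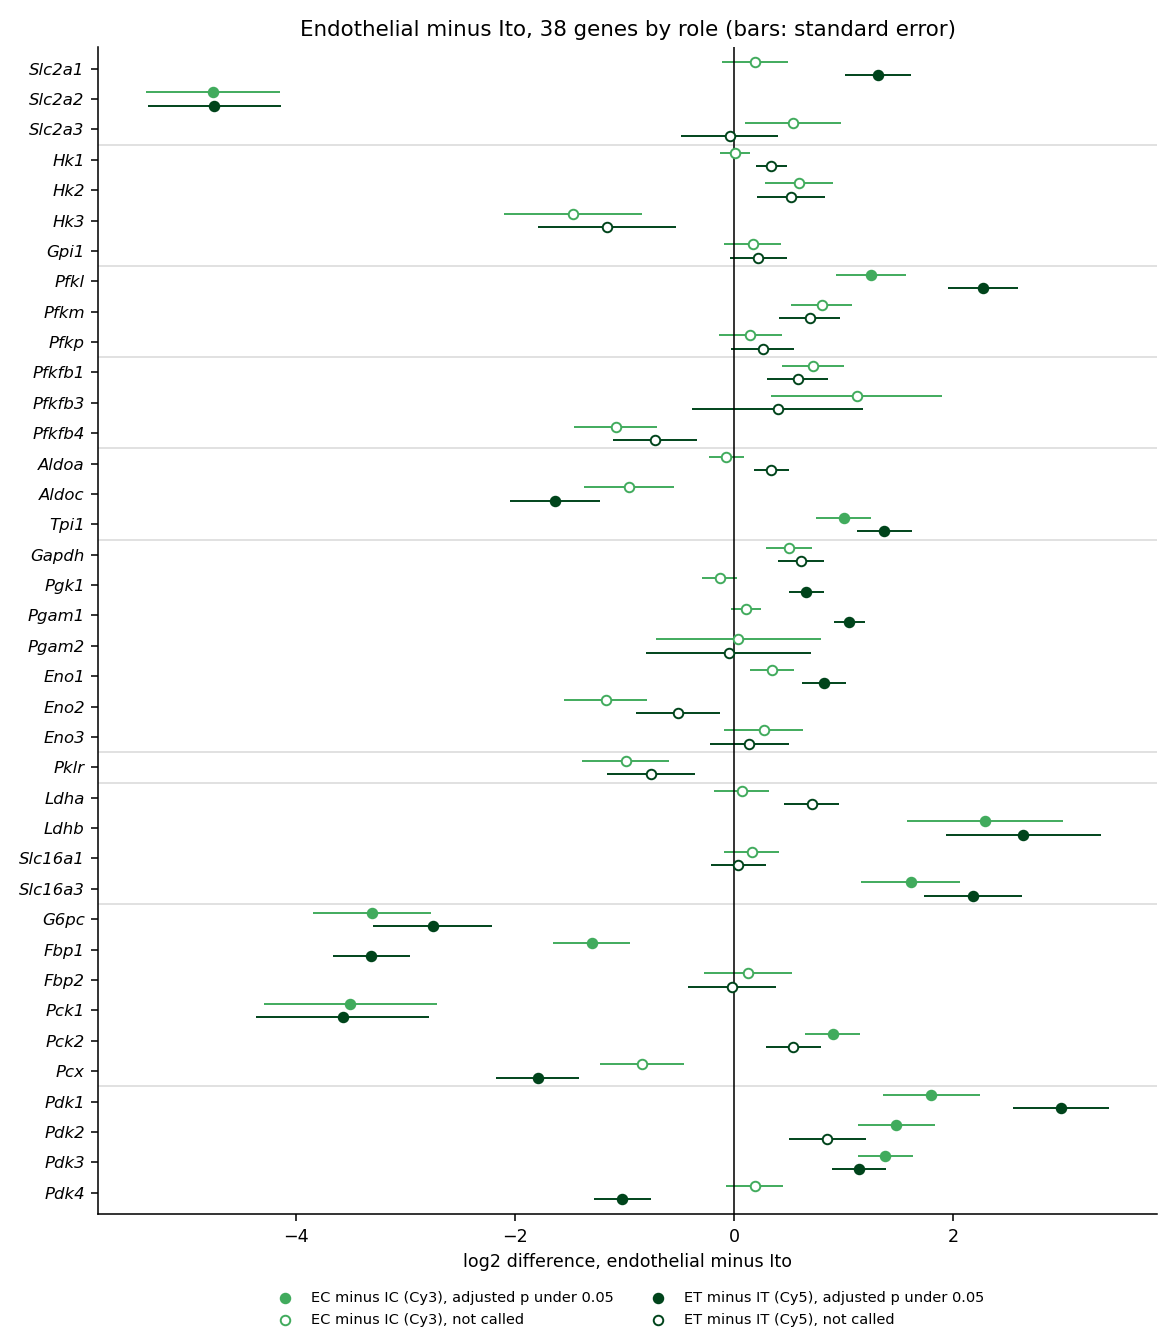
Log2 difference, endothelial minus Ito (horizontal axis), of 38 genes ordered by role (vertical axis), for control (EC minus IC) and TME cells (ET minus IT); points are fitted differences, bars standard errors, and filled points are called at an adjusted p under 0.05. *Slc2a2*, *G6pc* and *Pck1* lie left of -2 in both comparisons, and *Slc16a3* and *Ldhb* right of 1.

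Kupffer and endothelial or Ito cells lay on different slides, so their levels are set side by side with no test. *Hk3* was 14.36 ± 0.54 in KC and 14.57 ± 0.11 in KT, 12.60 ± 0.39 and 12.67 ± 0.51 in IC and IT, and 11.12 ± 0.26 and 11.51 ± 0.17 in EC and ET (SD, n = 4). *Pfkfb3* followed another order, with 14.70 ± 0.21 and 14.82 ± 0.07 in Kupffer, 13.57 ± 0.38 and 13.07 ± 0.31 in endothelial and 12.45 ± 0.27 and 12.67 ± 0.26 in Ito samples (SD, n = 4). *Pdk4* was highest in EC and IC, at 11.86 ± 0.23 and 11.67 ± 0.08, which did not differ beyond their spread, and lowest among the liver cells in KT, at 9.97 ± 0.20 (SD, n = 4). *Pkm* lay between 14.94 and 15.66 in the means of all 8 groups and was called in none of the 8 comparisons.

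**Figure D5:**
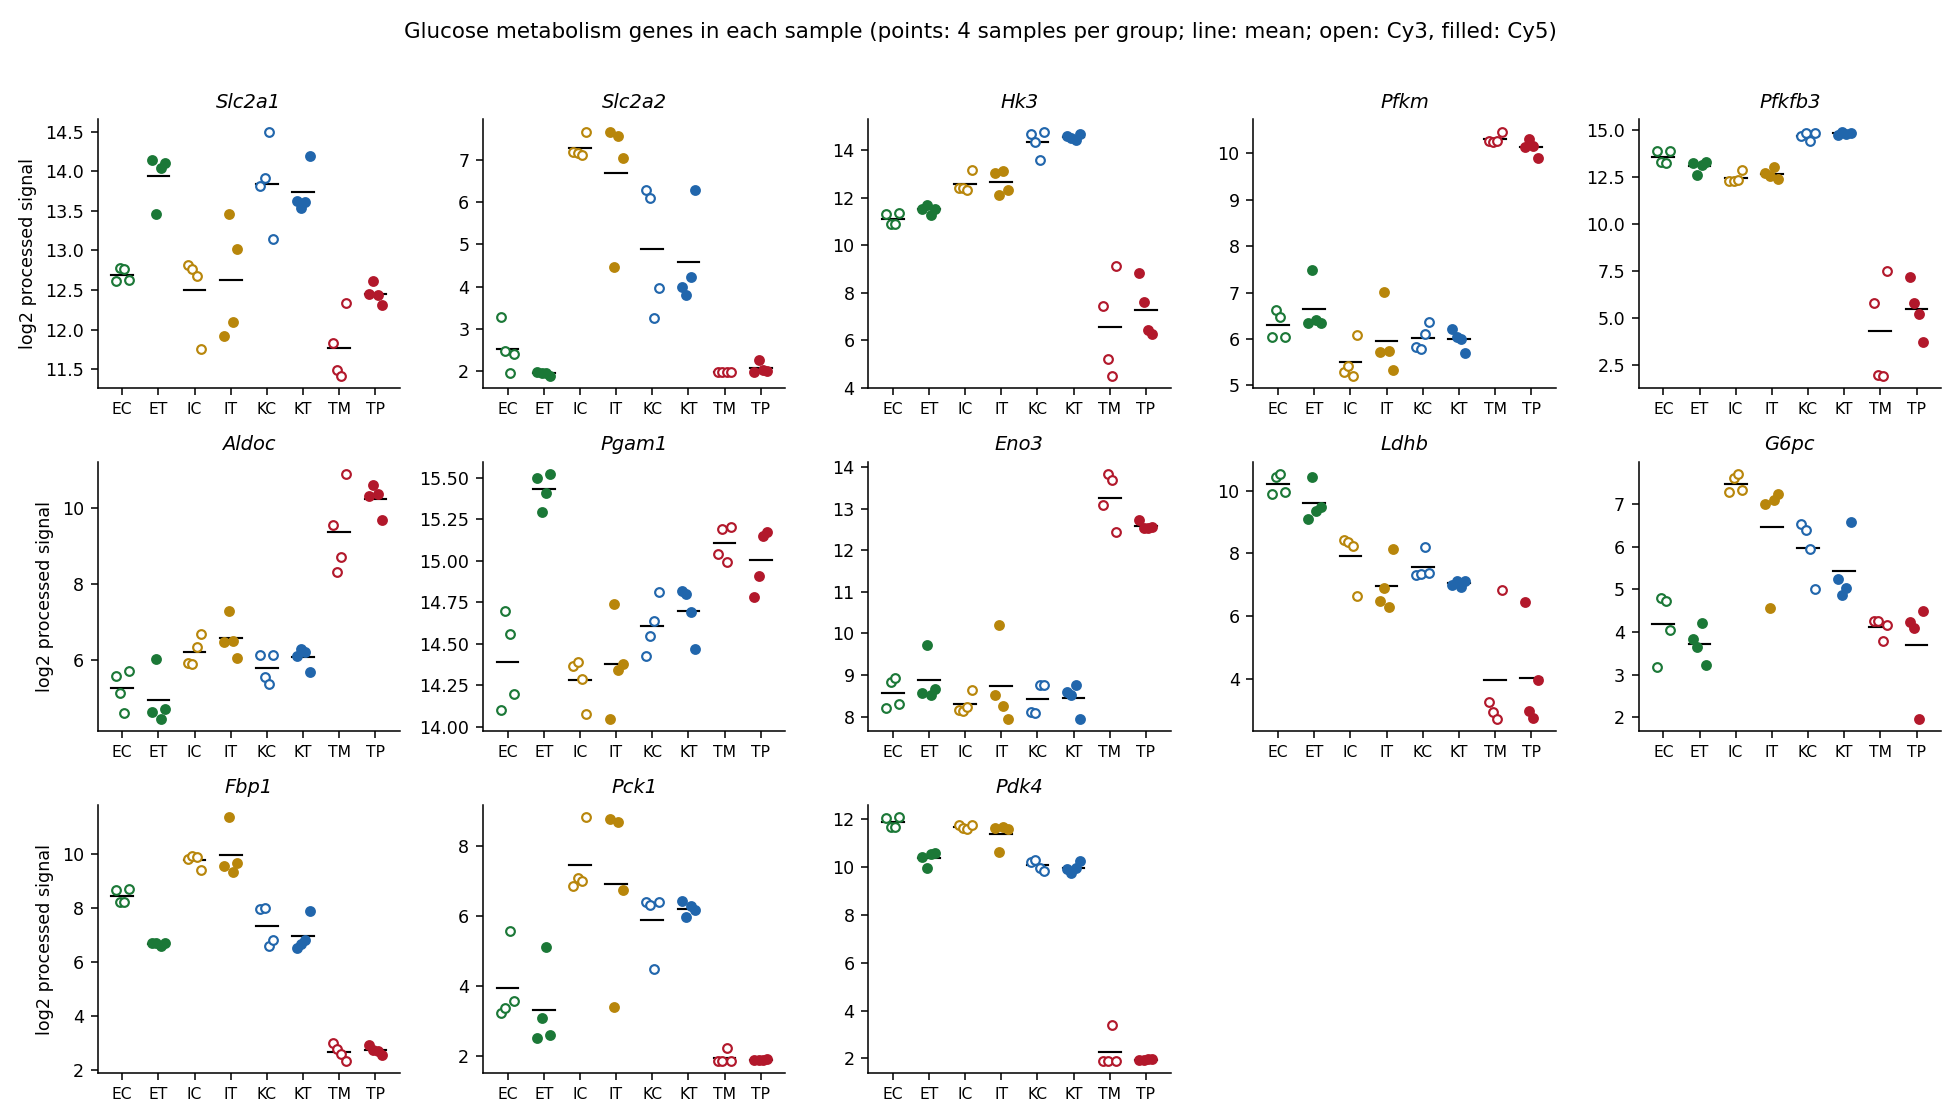
Log2 processed signal (vertical axis, scaled per gene) of the 13 genes given with all their samples, in each of the 8 groups (horizontal axis); points are samples, lines group means, open points Cy3 and filled points Cy5. *Pfkm* and *Eno3* are set apart in the 8 tumor samples, *Slc2a1* and *Pgam1* are raised in ET against EC, and *Slc2a2*, *G6pc* and *Pck1* are highest in most IC and IT samples.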

How the data were processed

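RNA of 32 samples was hybridised to 16 two-colour Agilent mouse arrays, 8 on each of 2 slides. The deposited intensity values are processed signals of Feature Extraction 10.7.3.1, which the authors' scanner program corrected for background, detrended and scaled between dyes, and probe positions are those of mm9. The deposited value table, on a linear scale of intensity, was used only as an alternative. Each channel was taken as a single sample and grouped by its label. Control spots were left out, spots of a probe were averaged, and log2 values were quantile normalized over all samples. Differences were fitted with limma 3.58.1 in R 4.3.3, with all 8 groups in the fit, and p-values were adjusted by Benjamini-Hochberg over 55681 probes. The script was tested on simulated data. Arrays have no read depth, and their number limits the precision.

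Each gene was represented by the probe with the highest mean log2 signal over the 32 samples. Genes called at an adjusted p under 0.05 were named, and values of every sample were given for the 8 genes that differed most between tumor and Kupffer cells, the 4 between endothelial and Ito cells and the 4 between TME and control cells. Other genes with their values were chosen after these were seen. Members, gene lists and tests were chosen with earlier results of these data known. Alternatives were the background correction, the scaling to the 75th percentile, a filter on dim probes, the replicate or array as a block, fewer samples, the methods' t-test, other probes and a stricter threshold of an adjusted p under 0.001 and 4-fold. The brightest probe on the chromosome of the gene was an alternative chosen after seeing the data. Promoter sequences are from RefSeq (GRCm38.p6), to which all 38 genes were matched by symbol and 37 with a promoter. Figures were drawn with matplotlib 3.10.9.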

Additional observations from a re-analysis of the deposited data

Results flagged for a closer look

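Of the 13 genes given with all their samples, each of the 8 groups was searched for a sample far from the other 3, by Dixon's gap (the distance to the nearest sample as a share of the range of the group). Of 104 gaps 25 were above the critical value of 0.829. Chance alone gives about 1 in 20. The gap of each is given after the gene, with the log2 level of the sample and of its nearest neighbour.

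IC replicate 4 stood apart in 7 genes. It was high in *Pfkfb3* (0.901, 12.86 against 12.35), *Hk3* (0.908, 13.19 against 12.43) and *Eno3* (0.831, 8.65 against 8.23). It was also high in *Pck1* (0.894, 8.83 against 7.08) and *Slc2a2* (0.888, 7.66 against 7.18). It was low in *Ldhb* (0.892, 6.65 against 8.23) and *Slc2a1* (0.869, 11.76 against 12.67). KT replicate 4 was high in *Slc2a1* (0.877, 14.19 against 13.62).

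IT replicate 2 was low in *Pdk4* (0.909, 10.61 against 11.59) and *G6pc* (0.909, 4.57 against 7.0) and high in *Fbp1* (0.836, 11.38 against 9.67). ET replicate 2 was high in *Pfkm* (0.940, 7.49 against 6.41), *Eno3* (0.887, 9.73 against 8.67) and *Aldoc* (0.842, 6.03 against 4.70), and low in *Slc2a1* (0.857, 13.46 against 14.04). ET replicate 3 was low in *Fbp1* (0.950, 6.58 against 6.71), and EC replicate 3 was high in *Pck1* (0.859, 5.56 against 3.57). KC replicate 3 was low in *Pck1* (0.949, 4.48 against 6.31) and high in *Ldhb* (0.941, 8.21 against 7.38).

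In the tumors, TM replicate 3 was high in *Pdk4* (0.997, 3.41 against 1.89) and *Pck1* (0.995, 2.25 against 1.86), both not well above background there. TM replicate 4 was high in *Pfkm* (0.896, 10.47 against 10.27) and *Ldhb* (0.870, 6.85 against 3.28). TP replicate 1 was high in *Eno3* (0.884, 12.72 against 12.56), and TP replicate 3 was low in *G6pc* (0.842, 1.96 against 4.09).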

How the results depend on the processing

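The 85 calls of single genes named here all kept their direction and their side of the threshold with the deposited table, with a filter on dim probes and with the array as a random block. Both were kept by 80 and 82 calls with the other background corrections, 83 on one slide and 78 scaled to the 75th percentile. With the replicate block 81 kept both, with only the 2 groups fitted 70, and by the methods' t-test 67. Without replicate 1, 2, 3 or 4 the counts were 64, 76, 66 and 71. Only 35 passed the stricter threshold. For TME against control endothelial cells, 6 genes were called, 10 when only the 2 groups were fitted, 12 by the methods' t-test, 0 at the stricter threshold, and 1 to 4 with 1 replicate left out. In TME Ito, TME Kupffer and TP against TM comparisons 0 were called, and 0 to 4, 0 to 1 and 0 to 2 with 1 replicate left out. In EC against IC 12 were called, 5 to 12 with 1 replicate left out and 2 at the stricter threshold. In ET against IT 17 were called, 8 when only the 2 groups were fitted, 7 by the methods' t-test, 10 to 17 with 1 replicate left out and 4 at the stricter threshold. In TM against KC and TP against KT 26 and 27 were called, 15 and 14 at the stricter threshold, and 23 to 26 and 24 to 27 with 1 replicate left out. No share of all probes is given for the fits of only 2 groups, the methods' t-test or most fits with 1 replicate left out. A higher or lower count under these settings is therefore not read as a result about the genes.

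With the probe of highest variance *Pfkp* turned from -1.33 to 0.97 in TM and from -0.80 to 1.51 in TP, and *Hk1* from 0.82 to -0.89 in TP. *Hk1* gave the same -0.89 with the brightest probe on its own chromosome, an alternative chosen after seeing the data. Scaled to the 75th percentile *Aldoa* turned from -0.74 to 0.07 in TP. The cause was not tested, beyond the choice of probe or scaling itself.

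Same-numbered samples did not deviate together throughout, with correlations of 0.04 to 0.40 in endothelial, -0.65 to 0.23 in Ito, -0.59 to 0.12 in Kupffer and -0.17 to 0.18 in tumor samples, so the numbers were not taken as pairs. With the replicate block, 3 genes were called in TME endothelial cells (beside 0.722% of all probes), without *Slc2a1*, *Eno1* and *Pgk1*, and 11 in EC against IC, without *Ldhb*. The block left the other counts at 0, 0, 0, 17, 26 and 27. Signal over background left only a bound for 5 called genes in TM against KC and 6 in TP against KT.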
